A study of Homo sapiens with 6 samples.

Results

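HGC-27 and AGS, 2 human gastric cancer cell lines, were compared with each other in the 4 libraries of cells that carried a lentivirus for NINJ1 overexpression. HGC-27 comes from an undifferentiated gastric carcinoma and AGS from a gastric adenocarcinoma. Each line was represented by 2 libraries, labelled replicates 1 and 2, which makes 4 of the 6 libraries of the study. The members were chosen by line and treatment alone, and the control library of each line was left out. In all 4 libraries the cells had been transduced in 6-well plates and polyadenylated RNA was taken after 48 hours, so the virus, labelled as overexpressing NINJ1, is shared by both groups. Each group is 1 established line, and the labels do not say whether its replicates were separate cultures; p-values therefore measure only the spread between these libraries, which may be technical. The tables of the 2 replicate 2 libraries are attached to records of the opposite line, and the line used throughout is the one in each table's own header and title.

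NINJ1 encodes ninjurin 1, a small membrane protein known for clustering in the plasma membrane of dying cells and rupturing it. Lines from the same organ can differ in lineage programme, in which inherited or silenced genes they read, in gene dosage along the chromosomes and in the basal activity of pathways such as interferon signalling. Interferon-stimulated genes are switched on through a complex of factors that includes STAT2 and IRF9 and binds a short repeated GAAA element in promoters, and their products restrict viruses. The groups of genes below follow these roles.

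Total counts ran from 12619684 in AGS replicate 1 to 15045666 in HGC-27 replicate 2, and 22839 to 22931 genes had at least 1 count in a library. Across genes, log2 CPM (the count scaled to a fixed library total) correlated at r = 0.990 between the AGS replicates and 0.988 between the HGC-27 replicates, against 0.909 to 0.915 between libraries of different lines (genes are not independent replicates). The first principal component held 88.3% of the variance and separated the lines. HGC-27 replicate 2 stood apart in one respect: its genes with up to 35% GC lay at a median of log2 -0.21 from the mean of the 4 libraries and those above 65% GC at 0.25. Replicates differed by more than counting noise, with 29.2% of well counted genes in AGS and 50.5% in HGC-27 outside the 95% range that counting alone would give.

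NINJ1 itself had 261 and 221 counts in the AGS libraries and 264 and 300 in the HGC-27 libraries. The groups did not differ beyond their spread, with a log2 difference of -0.028 (SE 0.165, edgeR adjusted p = 0.910). Whether the virus raised NINJ1 cannot be read from these 4 libraries, since all carry it.

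Markers gave a mixed picture of the labelled cell type, and the identity of the lines was not checked here by any means other than these markers, so AGS and HGC-27 stand for the lines as labelled. The simple epithelial keratins KRT8 (340 CPM in AGS and 396 in HGC-27) and KRT18 (210 and 232 CPM) were abundant in both lines, and the desmosomal plaque gene DSP stood at 714 and 712 CPM. Several defining epithelial and gastrointestinal genes were absent or nearly so. KRT19 had 1 count in 1 AGS library and 0 in the other 3, and the epithelial regulator GRHL2 and the mucosal gene AGR2 had 0 in all 4. ESRP1, an epithelial splicing regulator, had 7 and 5 counts in AGS and 1 and 0 in HGC-27. CDX2, VIL1 and CDH17, intestinal-type genes, had at most 4 counts in any library. Of 14 gastric mucosa markers 2 passed the filter on low counts, and their summed FPKM was 0.858 to 1.63 in every library. Of 8 general markers of carcinoma epithelium, 7 passed the filter, and their summed FPKM was 165 and 166 in AGS and 320 and 343 in HGC-27. EPCAM was low, with 103 and 86 counts in AGS and 139 and 156 in HGC-27. Of other cell types, summed FPKM was 3.42 to 5.87 for 10 fibroblast markers and 0.676 to 3.59 for 12 blood and immune cell markers. The fibroblast marker PDGFRB, with 70 and 67 counts in AGS and 2 and 7 in HGC-27, and the haemoglobin gene HBA1, with 26 in each AGS library and 0 in HGC-27, were called higher in AGS, and COL1A1, the other tested fibroblast marker, higher in HGC-27. The 10 endothelial markers summed to 45.8 and 48.8 FPKM in AGS and to 22.5 and 26.3 in HGC-27, with 2 of them above the filter and ESAM, an adhesion protein of cell junctions, called higher in AGS. The part of other cell types in the results was not tested.

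A gene is called here when its edgeR quasi-likelihood test has a Benjamini-Hochberg adjusted p under 0.05, and log2 differences are AGS minus HGC-27, so negative values are higher in HGC-27. Of 15562 genes tested, 6940 (44.6%) were called: 3545 (22.8%) were higher in AGS and 3395 (21.8%) higher in HGC-27. Among these, 1306 (8.39%) were more than 2-fold higher in AGS and 1202 (7.72%) more than 2-fold higher in HGC-27, together 16.1%. A difference of more than 4-fold was called for 983 genes and of more than 16-fold for 377. When only the 7673 genes with a mean FPKM of at least 5 were tested, 273 were more than 2-fold higher in AGS and 282 in HGC-27. That is a smaller share than over all tested genes. The lines also shared much: for 9375 genes (60.2%) the 95% interval of the log2 difference lay within -1 to 1. The median absolute log2 difference was 0.387 between lines, 0.137 between the AGS replicates and 0.191 between the HGC-27 replicates. The count of genes higher in AGS was 2355 without AGS replicate 1. Of the 2508 genes past 2-fold, 1850 (73.8%) were still called with each library left out in turn and 2446 kept their sign. The median log2 difference of all tested genes was -0.0022, which is the reference for the list medians below. For the share called in a list, the reference is 44.6% of all tested genes, or 48.1% of the protein coding ones. A gene at 0 in 1 line passed the filter through the other line alone, so its call was nearly fixed in advance. Shares of lists rich in such genes are therefore not evidence about the list.

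**Figure D1:**
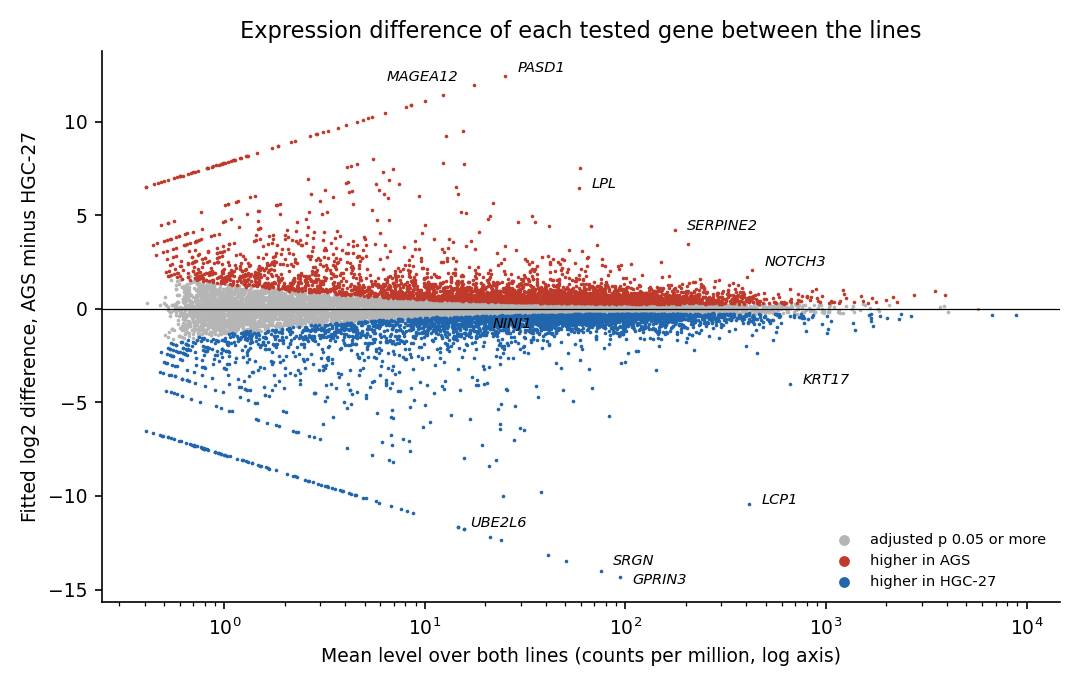
Each point is 1 of 15562 tested genes, and the genes not reported here are not drawn. The horizontal axis is the mean CPM of the gene over both lines on a log axis. The vertical axis is its fitted log2 difference, AGS minus HGC-27. Red genes were called higher in AGS and blue genes higher in HGC-27; the slanted rows of points at the edges are genes with 0 or few counts in 1 line, whose fitted value depends on the prior count.

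Among abundant genes, LCP1 was nearly confined to HGC-27. LCP1 (L-plastin, an actin bundler best known from blood cells) lies at chr13:46125920-46211871 in GRCh38 and had 7 and 8 counts in AGS against 11738 and 12768 in HGC-27, a log2 difference of -10.46 (SE 0.19, edgeR adjusted p = 1.08e-24). KRT17, a keratin of basal and stressed epithelium at chr17:41619441-41624842, had 992 and 1000 counts in AGS against 15936 and 20830 (log2 -4.01, SE 0.13). In the other direction, the receptor NOTCH3 stood at 687 CPM in AGS and 164 in HGC-27 (log2 2.07, SE 0.11), and the dystrophin gene DMD at 619 and 192 CPM (log2 1.69, SE 0.11). LPL, the lipase that splits triglycerides of lipoproteins, had 1418 and 1570 counts in AGS and 19 and 20 in HGC-27 (log2 6.45, SE 0.18). FSTL4, a follistatin-like secreted protein, had 1570 and 1463 counts in AGS and 7 and 12 in HGC-27 (log2 7.50, SE 0.21). The most abundant genes past 2-fold were SCD, LAMA5, FTL, MALAT1, KRT17 and RPL8 on the HGC-27 side and DYNC1H1, RPL13, EGFR, NOTCH3, DMD and CD44 on the AGS side. RPL8 is the least certain of them, since its HGC-27 replicates had 7867 and 15782 counts against 4021 and 4580 in AGS (log2 -1.26, SE 0.17).

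Some genes were read in 1 line and not at all in the other. Taking as on a gene with 100 counts or more in each of its line's libraries and as off one with 0 in the opposite pair, 13 genes were on in AGS and 24 in HGC-27. A count of 0 allows up to 3 counts, so a fold against 3 counts in each empty library is a lower bound that covers counting error only. GPRIN3, a neurite outgrowth regulator at chr4:89236386-89308010, had 3117 and 2437 counts in HGC-27 and was at least 813-fold higher there. SRGN, the proteoglycan serglycin at chr10:69088106-69104811, had 2122 and 2335 counts and was at least 651-fold higher. MPDZ, a tight junction scaffold, had 1231 and 1204 counts (at least 356-fold), and the metalloreductase gene STEAP4 had 758 and 660 (at least 207-fold). EMB (embigin, a partner of lactate transporters), TSPAN6 (a tetraspanin), TFPI (the inhibitor of tissue factor coagulation), MAGED1 and LXN also belonged to this group, with 550 and 697, 420 and 501, 352 and 510, 225 and 255, and 213 and 237 counts. On the AGS side the highest were 2 cancer-testis genes. PASD1, at chrX:151563622-151676739, had 566 and 732 counts and was at least 246-fold higher, and MAGEA12, at chrX:152733779-152737669, had 466 and 444 and was at least 173-fold higher. QPRT, which makes NAD from quinolinate, had 233 and 285 counts in AGS (at least 98.2-fold), and CYP2R1, the vitamin D 25-hydroxylase, had 199 and 214 (at least 78.4-fold). The cyclin gene CCND2, at chr12:4273772-4305350, was also on in AGS alone, with 117 and 137 counts, at least 48.2-fold. The remaining 23 genes ran from 101 to 1667 counts in the line that read them.

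**Figure D2:**
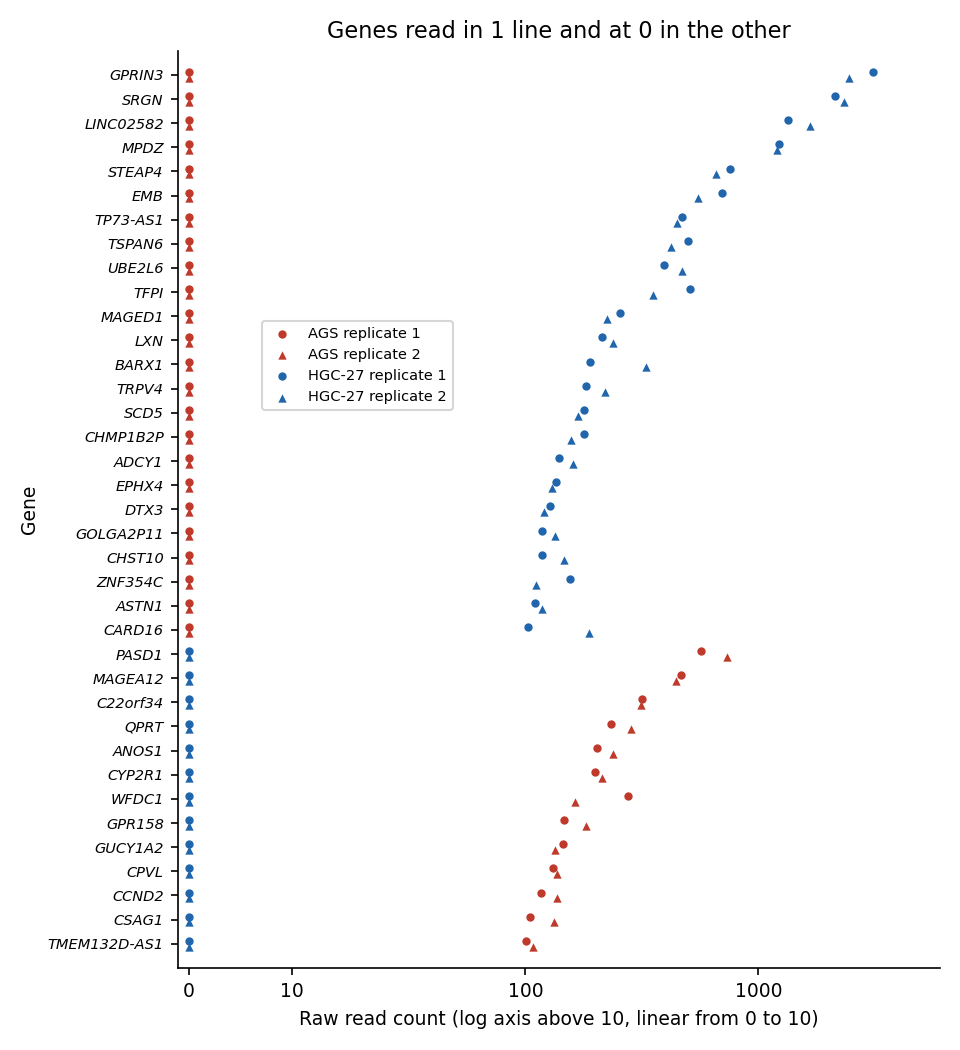
Raw read counts of the 37 genes read in 1 line alone (100 counts or more in each of its libraries, 0 in the opposite pair), on an axis that is linear from 0 to 10 and logarithmic above; circles are replicate 1, triangles replicate 2, red AGS and blue HGC-27. The 24 upper genes were read in HGC-27 and the 13 lower genes in AGS, and no gene had a count in the empty line.

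Interferon-stimulated genes were the list with the lowest median of the 42 gene lists compared. Of 38 listed genes 33 were tested; 28 were higher in HGC-27 and 0 higher in AGS, 23 of them by more than 2-fold, against 21.8% of all genes higher in HGC-27 and 7.72% by that much. The list's median log2 difference was -1.78. UBE2L6, the conjugating enzyme for the ubiquitin-like protein ISG15, lies at chr11:57551656-57568284 and had 0 counts in both AGS libraries against 393 and 472 in HGC-27, at least 126-fold. LGALS3BP, a secreted galectin-binding glycoprotein, had 90 and 88 counts in AGS against 1918 and 1908 (log2 -4.23, SE 0.14, edgeR adjusted p = 8.00e-19). OASL, a member of the family of oligoadenylate synthetases that sense viral RNA, had 153 and 179 against 1842 and 1667 (log2 -3.21, SE 0.14). SAMD9, which restricts poxviruses, had 264 and 308 against 2519 and 2428 (log2 -2.92, SE 0.12). In each of these 4 genes the HGC-27 libraries lay far above the AGS libraries, and the replicates of a line were close to each other. In bulk RNA, fewer cells reading a gene and less of its RNA per cell cannot be told apart, here and in every result that follows.

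Values for other members of this list are given although they were chosen after their values were seen. IFIT3 had 131 and 145 counts in AGS and 1161 and 1172 in HGC-27 (log2 -2.88, SE 0.14), and its neighbours IFIT2 and IFIT1, which bind viral RNA, differed by log2 -2.76 (SE 0.13) and -2.29 (SE 0.15). ISG15, the modifier that UBE2L6 transfers, had 435 and 463 counts against 1619 and 2248 (log2 -1.91, SE 0.13). IFITM1, an antiviral membrane protein, had 0 counts in AGS and 50 and 107 in HGC-27, at least 22.8-fold. IFI44L had 6 and 3 counts against 96 and 106. Some members had substantial levels in AGS as well: OAS3 and PARP14 stood above 50 CPM in both AGS libraries in the plot of interferon genes by library. The 5 tested members that were not called were IFIT5, ISG20, USP18, SP110 and EIF2AK2, with log2 differences of 0.03, -0.45, -0.34, 0.19 and 0.02. With each library left out, 24 to 29 members were higher in HGC-27 and 0 higher in AGS.

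**Figure D3:**
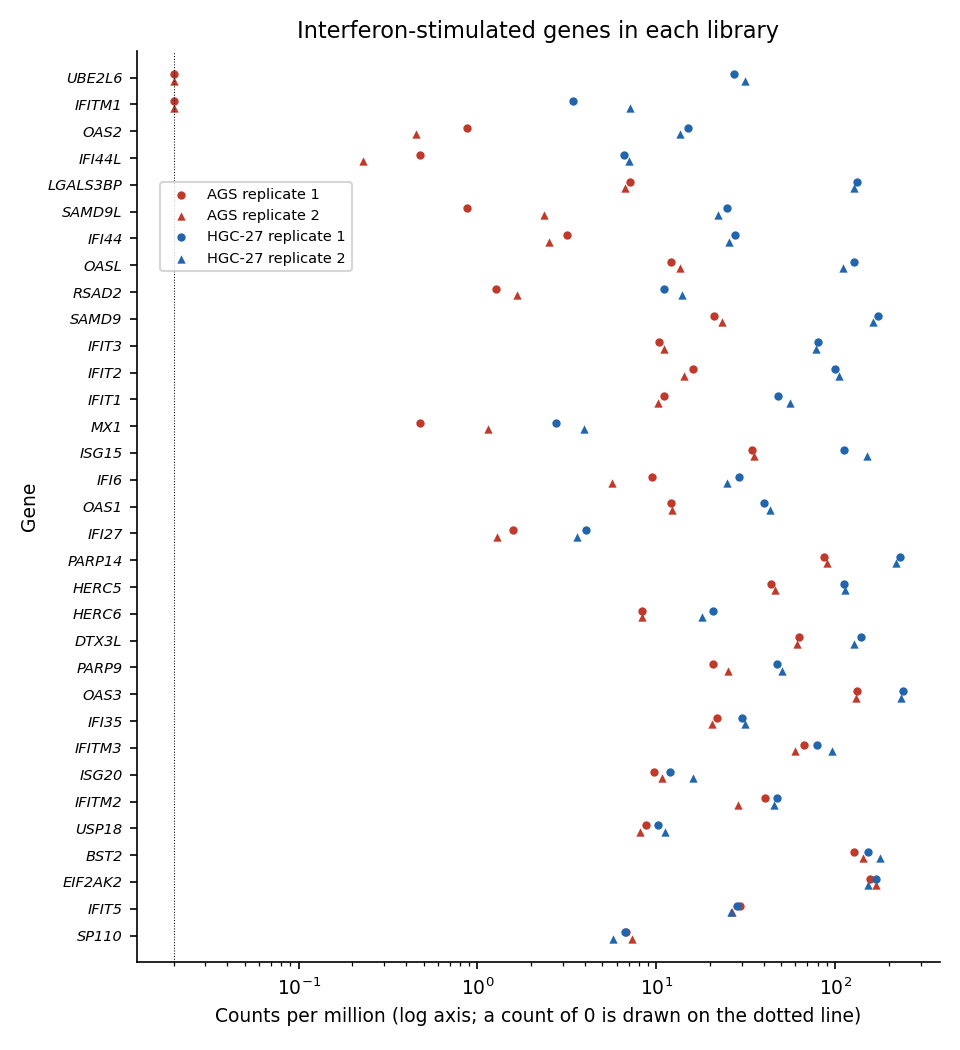
CPM of the 33 tested interferon-stimulated genes in each library on a log axis; circles are replicate 1, triangles replicate 2, red AGS and blue HGC-27, and a count of 0 is drawn on the dotted line. The blue points lie right of the red ones for the 28 called genes, from UBE2L6 at the top with 0 in AGS to BST2, and overlap them for IFIT5, EIF2AK2 and SP110.

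Promoters of these genes are shown because many of them, though not all, hold the element that the interferon factors bind. The motif GAAANNGAAA was searched on both strands, its reverse being TTTCNNTTTC, in RefSeq windows of GRCh38.p14 from 250 bases before to 50 after each start; matches may overlap. Of the 28 genes higher in HGC-27, 24 had a window and 19 (79.2%) held the motif. Of the 5 members not called, 4 had a window and 3 (75%) held it, so the motif did not set the called members apart from the others on this list. It was found in 3.91% of tested genes with a window, in 8.7% of those called more than 2-fold higher in HGC-27 and in 4.8% of those called more than 2-fold higher in AGS. The HGC-27 set includes the listed interferon genes past 2-fold, so its 8.7% is not independent of them. The 180 bases before the start are given below for 4 members with the motif and for UBE2L6, whose 2 windows hold none; capitals mark the motif, 5′ to 3′ on the gene's strand. IFI44L lies at chr1:78620268-78620447 (plus strand), ISG15 at chr1:1013317-1013496 (plus), IFIT3 at chr10:89332349-89332528 (plus, 1 of 2 windows), LGALS3BP at chr17:78979924-78980103 (minus) and UBE2L6 at chr11:57567936-57568115 (minus).
IFI44L: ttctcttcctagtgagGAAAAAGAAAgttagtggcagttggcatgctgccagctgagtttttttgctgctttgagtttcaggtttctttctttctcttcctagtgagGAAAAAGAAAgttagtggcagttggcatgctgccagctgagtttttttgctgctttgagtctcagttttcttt
ISG15: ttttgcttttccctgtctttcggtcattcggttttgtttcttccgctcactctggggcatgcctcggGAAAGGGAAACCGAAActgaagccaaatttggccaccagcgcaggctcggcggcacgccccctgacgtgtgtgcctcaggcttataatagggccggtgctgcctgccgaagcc
IFIT3: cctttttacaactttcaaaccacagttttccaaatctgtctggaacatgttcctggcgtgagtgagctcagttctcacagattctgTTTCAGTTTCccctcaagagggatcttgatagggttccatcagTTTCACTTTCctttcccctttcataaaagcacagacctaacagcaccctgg
LGALS3BP: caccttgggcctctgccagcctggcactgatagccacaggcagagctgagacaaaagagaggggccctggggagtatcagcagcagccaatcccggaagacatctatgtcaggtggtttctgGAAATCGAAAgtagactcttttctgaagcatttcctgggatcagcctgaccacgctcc
UBE2L6: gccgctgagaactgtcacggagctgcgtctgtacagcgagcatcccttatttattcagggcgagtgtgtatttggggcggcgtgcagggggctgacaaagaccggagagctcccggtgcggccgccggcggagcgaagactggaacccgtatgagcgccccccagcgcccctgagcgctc
The motif begins 164 and 73 bases before the start in IFI44L. In ISG15 a pair of overlapping matches begins 113 and 107 bases before it. IFIT3 holds the reverse form at 94 and 51 bases, and LGALS3BP a single copy at 58. A match describes letters and is not a measured binding site.

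Genes of innate sensing and interferon signalling that were called went the same way for the most part. Of 33 tested, 18 were higher in HGC-27 and 2 higher in AGS, against 21.8% and 22.8% of all genes, with a median of log2 -0.40. DHX58, a helicase that binds viral RNA, had 11 and 6 counts in AGS and 207 in each HGC-27 library (log2 -4.39, SE 0.31). TMEM173, the DNA-sensing adaptor STING, had 11 and 10 against 159 and 221 (log2 -3.96, SE 0.31). IFIH1, the RNA sensor MDA5, had 51 and 55 against 555 and 476 (log2 -3.09, SE 0.19), and the nuclear DNA sensor IFI16 had 309 and 300 against 1307 and 1313 (log2 -1.91, SE 0.13). The receptor chains IFNAR1 (log2 0.72, SE 0.11) and IFNGR2 (log2 0.66, SE 0.17) were the 2 genes higher in AGS. The factors STAT2 and IRF9 were not called: STAT2 had a log2 difference of -0.28 (SE 0.13), and IRF9 had 4 and 15 counts in AGS and 20 and 21 in HGC-27. Values for both were chosen after they were seen.

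Antigen presentation genes were higher in HGC-27 for 13 of 23 tested (56.5%) and higher in AGS for 0, with a median of log2 -0.51. Of all genes 44.6% were called in either direction. The immunoproteasome subunit PSMB9 had 74 and 101 counts in AGS and 323 and 427 in HGC-27 (log2 -1.90, SE 0.19). NLRC5, the transactivator of class I genes, differed by log2 -1.06 (SE 0.12), the peptide-trimming ERAP1 by -1.02 (SE 0.13) and PSME2 by -0.77 (SE 0.13). Class I chains themselves varied: HLA-B (log2 0.07, SE 0.11) and the invariant chain B2M (log2 0.06, SE 0.10) were not called, while HLA-C was higher in HGC-27 (log2 -0.54, SE 0.11). These 3 were chosen after their values were seen, and HLA genes are near-identical to each other, so the split of reads between them is uncertain. Without HGC-27 replicate 2, 11 genes of the list were higher in HGC-27 and 2 higher in AGS. Among inflammatory genes, 11 of 23 NF-kB, cytokine and chemokine genes were higher in HGC-27 and 5 higher in AGS (69.6% called). The chemokine CCL5 had 24 and 35 counts in AGS and 453 and 649 in HGC-27 (log2 -4.02, SE 0.22), and IL1A had 1 and 2 against 34 and 34. IL11, a cytokine of the IL-6 family, went the other way with 323 and 331 against 25 and 37 (log2 3.59, SE 0.22), and CXCL8 differed by log2 1.18 (SE 0.21). Without AGS replicate 2 the HGC-27 count of this list was 7 rather than 11.

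Genes of epithelial junctions and identity were mostly higher in HGC-27. Of 24 tested, 13 were higher in HGC-27 and 5 in AGS (75% called, against 44.6% of all genes), with a median of log2 -0.55. LSR, a tricellular junction receptor at chr19:35248330-35267964, had 3 and 8 counts in AGS and 663 and 974 in HGC-27 (log2 -6.99, SE 0.29, edgeR adjusted p = 5.44e-17). TJP3, a tight junction scaffold, had 25 and 36 against 146 and 193 (log2 -2.27, SE 0.26), and the desmosomal PKP3 603 and 578 against 1316 and 1368 (log2 -0.99, SE 0.12). CDS1, an enzyme of phospholipid synthesis in epithelia, had 0 in AGS and 49 and 48 in HGC-27. CDH1 (E-cadherin), the defining epithelial cadherin, was near the floor in both lines with 3 and 0 counts in AGS and 20 and 18 in HGC-27; its call was lost without AGS replicate 2 (adjusted p = 0.0664). Higher in AGS were MAL2, an apical transport protein, with 1261 and 1252 counts against 308 and 351 (log2 2.13, SE 0.13), the membrane protease ST14 (log2 1.45, SE 0.22) and its inhibitor SPINT1, with 18 and 13 counts against 1 and 1. The list had 11 genes higher in HGC-27 and 3 in AGS without AGS replicate 1. Among 7 tested keratins 4 were higher in HGC-27 and 0 in AGS (57.1% called, against 44.6% of all genes). They were KRT17, as above, KRT7 with 1706 and 2086 counts against 11062 and 11428 (log2 -2.37, SE 0.11), KRT80 (log2 -1.29, SE 0.11) and KRT16 (log2 -0.87, SE 0.27). KRT16 was not called by DESeq2 (adjusted p = 0.0531), nor without HGC-27 replicate 2 (log2 -0.49).

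Mesenchymal genes leaned towards AGS, with 8 of 18 higher there, 2 higher in HGC-27 and a median of log2 0.28. Of the 18, 55.6% were called, against 44.6% of all genes. VIM, the mesenchymal intermediate filament, had 5485 and 6459 counts in AGS and 3724 and 3524 in HGC-27 (log2 0.91, SE 0.11). The repressor of epithelial genes ZEB1 differed by log2 0.85 (SE 0.11) and the forkhead factor FOXC2 by 1.39 (SE 0.16). Fibronectin, FN1, was the large exception with 58 and 59 counts in AGS and 1326 and 1433 in HGC-27 (log2 -4.36, SE 0.16). SNAI2, the other gene higher in HGC-27 (log2 -0.93, SE 0.30), lost its call by DESeq2 (adjusted p = 0.062). It was also not called by limma on log2(FPKM + 1) (adjusted p = 0.14) or on log2(FPKM + 0.1) (adjusted p = 0.143). Its call was lost as well without AGS replicate 1 (log2 -0.79) and without HGC-27 replicate 1 (log2 -0.28).

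Receptors for the matrix also leaned towards AGS. Of 13 tested integrins 7 were higher in AGS and 1, ITGA7, in HGC-27 (61.5% called, against 44.6% of all genes). The collagen receptor chain ITGA2 had 4020 and 4617 counts against 2090 and 2246 (log2 1.19, SE 0.10), ITGB8 451 and 379 against 188 and 106 (log2 1.69, SE 0.20), and ITGAV and ITGB5 differed by log2 0.89 and 0.87 (SE 0.11 for both). Without HGC-27 replicate 1, 2 integrins rather than 1 were higher in HGC-27. The matrix itself split by chain: of 26 laminins and collagens tested, 9 were higher in each line (69.2% called). The laminin chains LAMA5 (log2 -1.08, SE 0.11), LAMB3 (-1.23, SE 0.11) and LAMB2 (-0.82, SE 0.14) and COL1A1 (-0.98, SE 0.13) were higher in HGC-27. LAMB1 (1.29, SE 0.10), the basement membrane collagens COL4A1 (1.18, SE 0.11) and COL4A2 (0.84, SE 0.11) and COL15A1 (3.11, SE 0.14) were higher in AGS. Among cadherins and other adhesion molecules 6 of 18 were higher in AGS, led by the nectin NECTIN1 with 716 and 706 counts against 168 and 211 (log2 2.10, SE 0.15) and CDH12 with 70 and 84 against 4 and 1, and 4 were higher in HGC-27, among them ALCAM (log2 -1.13, SE 0.12) and PCDH1 (log2 -1.40, SE 0.16). Of the cadherins and other adhesion molecules tested, 55.6% were called. Matrix proteases and their inhibitors held 11 genes higher in AGS and 8 higher in HGC-27 of 26 (73.1% called). SERPINE2, a secreted inhibitor of thrombin and urokinase at chr2:223975112-224039319, had 4613 and 4000 counts in AGS and 282 and 245 in HGC-27 (log2 4.23, SE 0.13, edgeR adjusted p = 1.89e-19). The membrane metalloprotease MMP14 had 14 and 10 against 156 and 171 (log2 -3.56, SE 0.31), and SERPINB5 (maspin) 0 and 1 against 74 and 55.

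**Figure D4:**
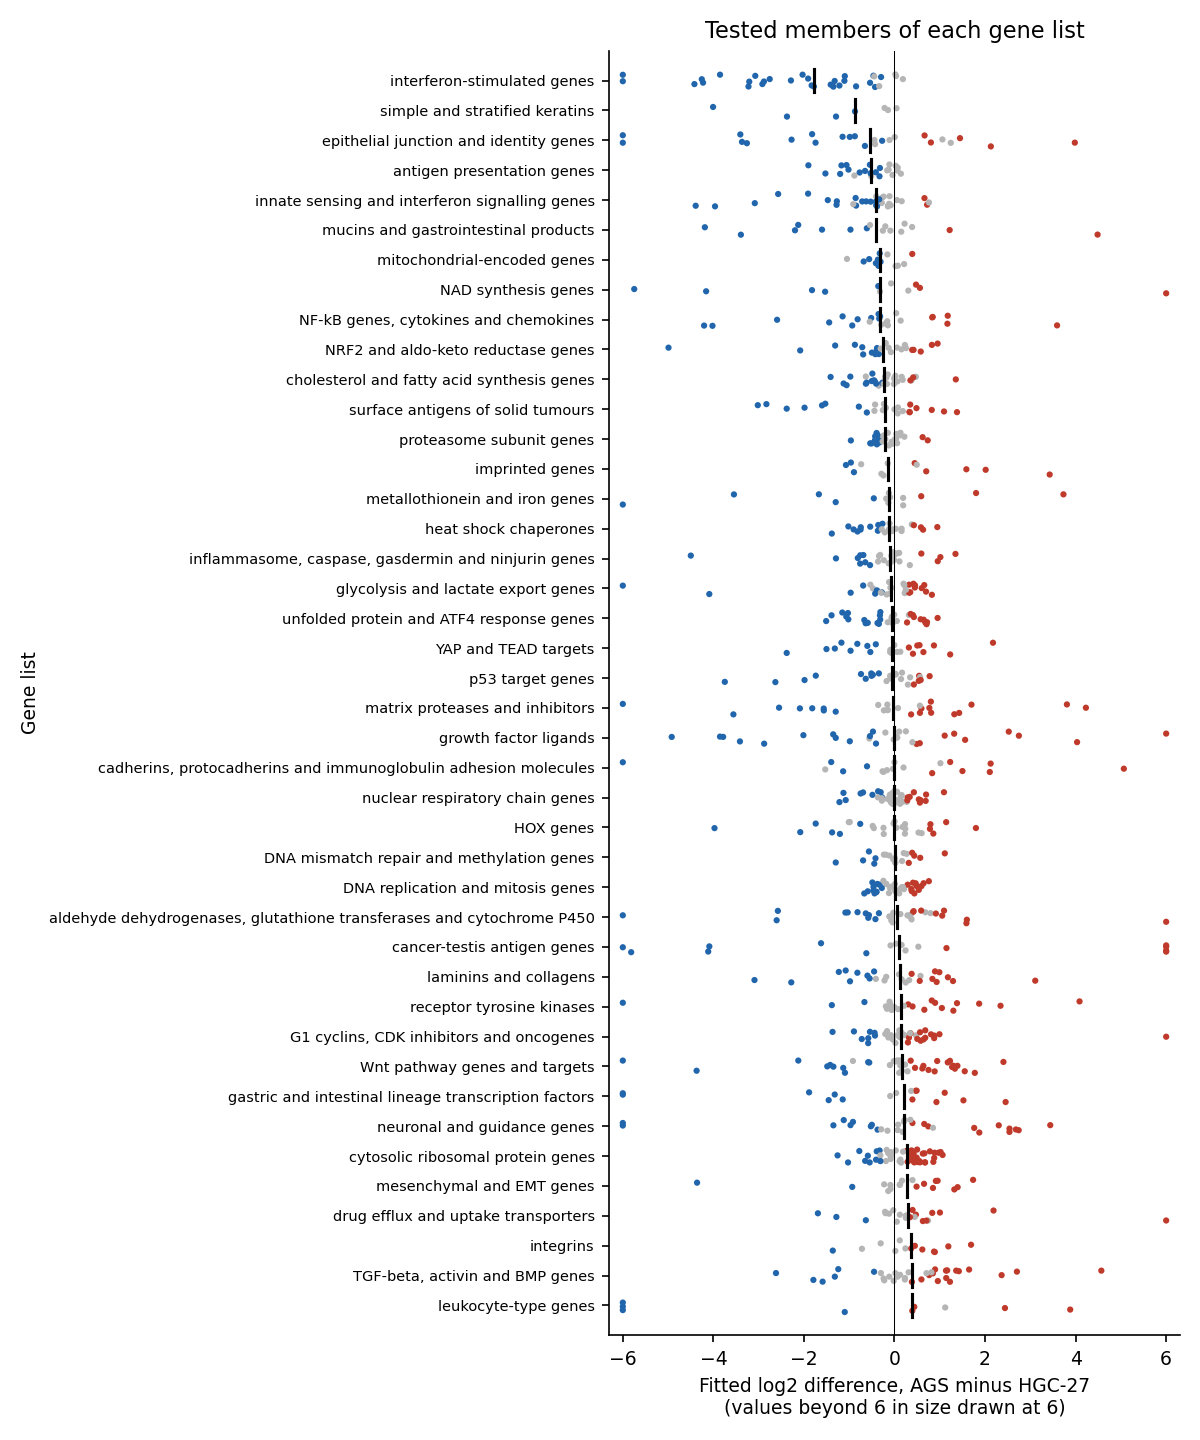
Fitted log2 difference, AGS minus HGC-27, of every tested member of 42 gene lists, with values beyond 6 in size drawn at 6; red members were called higher in AGS, blue members higher in HGC-27, grey members were not called, and the black bar is the list median. Interferon-stimulated genes lie furthest left, at a median of -1.78, and most other lists have members on both sides.

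Transcription factors of gastric and intestinal lineages were split between the lines: 13 of 16 tested were called, against 44.6% of all genes, 7 higher in AGS and 6 in HGC-27. GATA4, a factor of foregut epithelium, had 1 and 0 counts in AGS and 647 and 808 in HGC-27. BARX1, a homeobox factor of stomach mesenchyme, had 0 in AGS and 190 and 330 in HGC-27, at least 75.6-fold. Both genes passed the filter through HGC-27 alone, so the share called is not evidence about the list. KLF5 had 3632 and 3532 counts against 9356 and 8768 (log2 -1.14, SE 0.10), and the pioneer factor FOXA1 80 and 71 against 194 and 239 (log2 -1.32, SE 0.21). In AGS, SOX9 had 493 and 547 counts against 111 and 106 (log2 2.45, SE 0.16), HNF4G 95 and 86 against 39 and 33 (log2 1.52, SE 0.28), and ONECUT2 differed by log2 0.93 (SE 0.11). The remaining 14 listed factors, CDX1, CDX2, SOX2 and FOXA2 among them, did not pass the filter.

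Mucins and other gastrointestinal products were higher in HGC-27 for 7 of 16 tested and higher in AGS for 2 (56.25% called, against 44.6% of all genes). MUC16, the CA125 antigen, had 515 and 553 counts in AGS and 1799 and 1911 in HGC-27 (log2 -1.60, SE 0.11), the gel-forming MUC5B 3 and 1 against 52 and 36, and the tetraspanin TSPAN8 25 and 30 against 129 and 147 (log2 -2.13, SE 0.27). The membrane mucin MUC13 was higher in AGS, with 4541 and 4281 counts against 2187 and 2159 (log2 1.22, SE 0.10). Alkaline phosphatase genes of the chromosome 2 cluster went in opposite directions: the intestinal ALPI had 290 and 202 counts in AGS and 9 and 16 in HGC-27 (log2 4.49, SE 0.30), whereas ALPG had 16 and 17 against 175 and 225 (log2 -3.39, SE 0.28). These genes are near-identical copies, so reads could be split between them and their values are uncertain. HOX genes, which record position along the body axis, were called at about the background rate, 11 of 26. HOXC6 (log2 -1.38, SE 0.18) and HOXC9 (-1.21, SE 0.23) were among those higher in HGC-27, and HOXB9 (1.14, SE 0.19) and HOXA13 (0.79, SE 0.14) among those higher in AGS. HOXC13, chosen after its values were seen, stood at 26.3 CPM in both lines.

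Cancer-testis antigen genes, normally read in the germ line and often demethylated in tumours, gave different repertoires in the lines. Of 48 listed, 16 were tested, and 5 were higher in AGS and 6 in HGC-27 (68.75% called, against 44.6% of all genes). Genes such as PASD1 and MAGEA12 passed the filter through 1 line alone, so that share is not evidence about the list. Besides PASD1 and MAGEA12, AGS read CSAG1, next to MAGEA12 on chromosome X, with 105 and 133 counts against 0, and GAGE2A with 172 and 182 against 0 and 2. HGC-27 read MAGEB2 with 593 and 733 counts against 4 and 0, MAGEA11 with 202 and 200 against 5 and 1, PAGE1 with 431 and 569 against 24 and 27 (log2 -4.09, SE 0.22) and GAGE1 with 369 and 310 against 25 and 9. MAGE and GAGE genes are multigene families, and the split of reads between copies such as GAGE1 and GAGE2A is uncertain. PRAME and MAGEA3, chosen after their values were seen, were not called, at 41.5 and 40.6 CPM and at 40.9 and 43.4 CPM. Leukocyte-type genes, here read in lines labelled as carcinoma, passed the filter for 9 of 25, and 88.9% of these were called. SRGN and IKZF3, at 0 in AGS, passed it only through HGC-27, so that share is not evidence about the list. SRGN, LCP1 and IKZF3 (0 counts in AGS, 89 and 83 in HGC-27) were higher in HGC-27 along with CD37, while CD53 and DOCK2, with at most 21 counts in any library, were higher in AGS with LYN and RUNX3. The calls of LYN, RUNX3 and CD53 were lost without AGS replicate 2 (adjusted p = 0.0638, 0.0947 and 0.0571), which left 0 genes higher in AGS and 4 in HGC-27; without AGS replicate 1, when LYN and RUNX3 were not called (adjusted p = 0.128 and 0.148), these numbers were 2 and 4. CD53 was also not called without HGC-27 replicate 2 (adjusted p = 0.0663).

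Receptor tyrosine kinases leaned towards AGS, with 11 of 24 higher there and 3 higher in HGC-27 (58.3% called, against 44.6% of all genes). EGFR had 10726 and 12218 counts in AGS and 6502 and 6202 in HGC-27 (log2 1.05, SE 0.10, edgeR adjusted p = 4.90e-09). FGFR1 had 1726 and 1893 against 782 and 902 (log2 1.30, SE 0.11), the ephrin receptor EPHB2 485 and 607 against 145 and 197 (log2 1.87, SE 0.16), and IGF1R differed by log2 0.90 (SE 0.10). ERBB3, the kinase-poor partner of ERBB2, was higher in HGC-27 with 391 and 438 counts against 139 and 138 (log2 -1.38, SE 0.16). EPHA3 had 0 counts in AGS and 14 and 28 in HGC-27. DDR2 (log2 -0.66, SE 0.24) lost its call by DESeq2 (adjusted p = 0.108). Its call was also lost without AGS replicate 1 (log2 -0.47) and without HGC-27 replicate 2 (log2 -0.45).

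Ligands for the EGF receptor family were split between the lines. EREG had 14 and 8 counts in AGS and 174 and 177 in HGC-27 (log2 -3.78, SE 0.31), and TGFA 114 and 139 against 597 and 571 (log2 -2.01, SE 0.16). AREG (log2 -0.99, SE 0.30), EPGN (1 and 1 counts against 12 and 15) and BTC (3 and 0 against 14 and 13) were also higher in HGC-27, these 3 chosen after their values were seen. NRG1, a ligand of ERBB3, was higher in AGS with 112 and 94 counts against 15 and 20 (log2 2.75, SE 0.32), as was HBEGF, also chosen after it was seen (log2 1.56, SE 0.25). EGFR was thus higher in the line with less EREG and TGFA and more HBEGF RNA. Growth factor ligands as a list were called in 72.4% of those tested, against 44.6% of all genes. Over all 29 tested growth factor ligands, 9 were higher in AGS, among them EFNB2 (log2 2.52, SE 0.20) and PDGFB (1.32, SE 0.17), and 12 were higher in HGC-27, among them FGF13, with 4 and 1 counts against 104 and 77. Without AGS replicate 2 the second number was 6.

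Wnt pathway genes were called for 26 of 37 tested (70.3%, against 44.6% of all genes), 16 higher in AGS and 10 in HGC-27. The receptor FZD6 had 917 and 897 counts in AGS and 194 and 198 in HGC-27 (log2 2.41, SE 0.14), FZD1 298 and 281 against 124 and 170 (log2 1.18, SE 0.18), and the ligand WNT10B 810 and 646 against 325 and 338 (log2 1.33, SE 0.14). The R-spondin receptor LGR4 differed by log2 0.75 (SE 0.11). The non-canonical ligand WNT5A was higher in HGC-27 with 1671 and 1409 counts against 473 and 489 (log2 -1.48, SE 0.12), as were the antagonist DKK1 (log2 -1.13, SE 0.17) and LGR6 (-1.42, SE 0.27), and WNT7A had 23 and 33 counts in HGC-27 and 0 in AGS. Without AGS replicate 2, 14 genes were higher in AGS and 6 in HGC-27. In the TGF-beta, activin and BMP group, 16 of 35 were higher in AGS and 6 in HGC-27 (62.9% called), with a median of log2 0.38. The activin antagonist FST had 1101 and 923 counts in AGS against 243 and 207 (log2 2.37, SE 0.15), the receptor TGFBR2 1311 and 1318 against 730 and 638 (log2 1.14, SE 0.12), and the transducer SMAD3 and the ligand BMP6 differed by log2 1.14 and 1.16 (SE 0.12 for both). BMP2 was higher in HGC-27, with 658 and 664 counts against 89 and 99 (log2 -2.62, SE 0.16), and so was ID1, a target of BMP signalling (log2 -1.24, SE 0.12). Among YAP and TEAD targets (70.8% called) 8 of 24 were higher in AGS and 9 in HGC-27, with the coagulation receptor F3 (log2 -2.38, SE 0.12) and the 5′-nucleotidase NT5E (log2 2.18, SE 0.13) furthest apart. Those numbers were 5 and 7 without AGS replicate 1, and without AGS replicate 2 they were 5 and 8.

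Genes of DNA replication and mitosis differed by small amounts only. All 35 were tested, 11 were higher in each line (62.9% called, against 44.6% of all genes), and none of the 35 differed by more than 2-fold. Among those higher in HGC-27 were the replication licensing genes MCM5 (log2 -0.67, SE 0.13) and CDT1 (-0.59, SE 0.11) and the proliferation marker MKI67 (-0.47, SE 0.11). Among those higher in AGS were BIRC5 (0.76, SE 0.11) and FOXM1 (0.64, SE 0.11), which act in mitosis, and RRM2 (0.59, SE 0.12), which makes deoxynucleotides for replication. MKI67 lost its call without AGS replicate 1 (log2 -0.39). The counts were 9 and 7 without AGS replicate 1, and without AGS replicate 2 they were 7 and 4. Upstream of the cycle, 14 of 37 G1 cyclins, inhibitors and oncogenes were higher in AGS and 8 in HGC-27 (59.5% called). The inhibitors CDKN1B (log2 -0.72, SE 0.12) and CDKN1C (-0.90, SE 0.12) and the ERK phosphatase DUSP5 (-1.37, SE 0.11) were higher in HGC-27, and the pocket protein RBL2 (0.99, SE 0.12) and ETV5 (0.88, SE 0.11) in AGS. Of 27 p53 targets (55.6% called), 10 were higher in HGC-27, among them PLK2 with 735 and 739 counts against 143 and 182 (log2 -1.99, SE 0.15) and the death gene BBC3 (log2 -1.74, SE 0.24), and 5 were higher in AGS, none by more than 2-fold. Without AGS replicate 1 these numbers were 6 and 2, and without AGS replicate 2 they were 6 and 5.

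Of 33 cholesterol and fatty acid synthesis genes 48.5% were called, near the 44.6% of all genes; 13 were higher in HGC-27 and 3 in AGS, with a median of log2 -0.23. HMGCS1, an early enzyme of the mevalonate pathway, had 1454 and 1561 counts in AGS and 4728 and 4449 in HGC-27 (log2 -1.41, SE 0.11). The desaturase SCD had 10942 and 11791 against 26390 and 30401 (log2 -1.12, SE 0.11), and the regulator SREBF1 differed by log2 -0.98 (SE 0.11). The fatty acid elongase ELOVL6 was higher in AGS with 214 and 235 counts against 96 and 105 (log2 1.35, SE 0.19). Leaving out AGS replicate 1 gave 7 genes higher in HGC-27 and 1 in AGS.

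Genes of NAD synthesis differed in both directions, and 72.7% of those tested were called, against 44.6% of all genes. QPRT, which uses quinolinate, was read in AGS alone, as above. KYNU, an earlier enzyme on the same route from tryptophan at chr2:142877498-143055832, had 36 and 42 counts in AGS and 2517 and 2293 in HGC-27 (log2 -5.75, SE 0.16, edgeR adjusted p = 1.46e-20). NAPRT, which starts from nicotinic acid, had 195 and 159 against 445 and 734 (log2 -1.53, SE 0.18), and NAMPT, which salvages nicotinamide, differed by log2 0.56 (SE 0.10). In total 3 of 11 were higher in AGS and 5 in HGC-27, and without AGS replicate 1 or 2 these numbers were 2 and 3. Of 14 metallothionein and iron genes 3 were higher in AGS and 5 in HGC-27 (57.1% called), with a median of log2 -0.13. The ferritin chains FTL and FTH1, which store iron, were higher in HGC-27, by log2 -1.30 (SE 0.11) and -1.67 (SE 0.16), with FTH1 at 8776 and 15734 counts in HGC-27, and the transferrin receptor TFRC was higher in AGS (log2 0.59, SE 0.10). Ferritins have many pseudogene copies, which makes their counts uncertain. The metallothioneins MT2A (log2 1.80, SE 0.11) and MT1E, with 312 and 317 counts against 27 and 27 (log2 3.73, SE 0.22), were higher in AGS, and MT1F had 0 counts in AGS and 16 and 22 in HGC-27.

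Among NRF2 targets and aldo-keto reductases 11 of 24 were higher in HGC-27 and 5 in AGS (66.7% called, against 44.6% of all genes). AKR1C1, an enzyme of steroid and carbonyl reduction, had 4 and 2 counts in AGS and 106 and 121 in HGC-27 (log2 -4.99, SE 0.44), a value that is uncertain because its reads may be split with close paralogues. The efflux pump ABCC2 had 376 and 392 against 1907 and 1818 (log2 -2.08, SE 0.12), while the cystine transporter SLC7A11 was higher in AGS (log2 0.95, SE 0.11). Without AGS replicate 1 the numbers were 6 and 3, and without AGS replicate 2 they were 7 and 3. Among 32 aldehyde dehydrogenases, glutathione transferases and cytochromes P450 (62.5% called), 9 were higher in AGS, GSTM3 (log2 1.59, SE 0.11) and CYP1B1 (1.60, SE 0.14) among them, and 11 in HGC-27, with GSTO2 at 288 and 235 counts against 44 and 31 (log2 -2.60, SE 0.24). Without AGS replicate 2 the second number was 7. Drug transporters included 9 of 23 higher in AGS and 3 in HGC-27, 52.2% called and so near the 44.6% of all genes. The multidrug pump ABCB1 had 27 and 24 counts in AGS and 0 in HGC-27, and ABCG2, another such pump, 45 and 46 against 180 and 157 (log2 -1.69, SE 0.24). In glycolysis and lactate export 10 of 29 genes were higher in AGS and 7 in HGC-27 (58.6% called). The glucose transporter SLC2A3 had 16 and 13 counts in AGS and 250 and 321 in HGC-27 (log2 -4.09, SE 0.27) and EMB had 0 in AGS, while the other 15 called genes differed by less than 2-fold. These totals were 5 and 4 without AGS replicate 1, 5 and 5 without AGS replicate 2 and 13 and 11 without HGC-27 replicate 1.

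Of the large protein complexes, ribosomal protein genes leaned towards AGS (69.8% called), with 27 of 53 higher there, 10 higher in HGC-27 and a median of log2 0.27. RPL13 had 15289 and 15792 counts in AGS and 7600 and 9477 in HGC-27 (log2 1.06, SE 0.11), and RPS20 and RPS7 differed by log2 0.89 and 0.88 (SE 0.10 for both). Left-out libraries moved these numbers to 21 and 6 (without AGS replicate 1), 17 and 10 (AGS replicate 2) and 27 and 19 (HGC-27 replicate 1). The genes have many pseudogene copies, and RPL8 in particular varied between the HGC-27 replicates. Proteasome subunits were called in 41.9% of 31, against 44.6% of all genes, with 11 higher in HGC-27 and 2, PSMD1 (log2 0.73, SE 0.11) and PSMD2 (0.62, SE 0.10), higher in AGS; the numbers were 2 and 2 without AGS replicate 1, and 7 and 2 without AGS replicate 2. Nuclear genes of the respiratory chain split 10 to 9 of 41, 46.3% against 44.6% of all genes, with NDUFA10 (log2 1.09, SE 0.13) and CYC1 (-0.69, SE 0.11) among them, and the split was 5 to 4, 6 to 4, 9 to 14 and 11 to 4 as AGS replicate 1, AGS replicate 2, HGC-27 replicate 1 and HGC-27 replicate 2 were left out. Of 13 genes on the mitochondrial chromosome, 7 were higher in HGC-27 and 1 in AGS, with MT-ND5 at log2 -0.56 (SE 0.11); without AGS replicate 2 the numbers were 3 and 0, and without HGC-27 replicate 1 they were 8 and 2.

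Stress genes of the ATF4 and unfolded protein response split, with 14 of 32 higher in HGC-27 and 10 in AGS (75% called, against 44.6% of all genes). The regulators TRIB3 (log2 -1.02, SE 0.10) and ATF3 (-1.06, SE 0.12) were higher in HGC-27, and the serine synthesis genes PHGDH (0.68, SE 0.10) and PSPH (0.65, SE 0.12) in AGS. Without AGS replicate 1 those numbers were 9 and 6, and without AGS replicate 2 they were 8 and 6. Of 25 heat shock chaperones (56% called) 10 were higher in HGC-27, BAG3 (log2 -1.38, SE 0.13) and HSPB8 (-1.02, SE 0.13) among them, and 4 in AGS, where HSP90AA1 had 53731 and 65676 counts against 34939 and 35938 (log2 0.95, SE 0.11).

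Genes of neuronal identity and axon guidance were read in both lines, 11 of 29 higher in AGS and 9 in HGC-27 (69.0% called, against 44.6% of all genes). The semaphorins SEMA3F, with 1105 and 823 counts in AGS against 180 and 165 (log2 2.68, SE 0.16), and SEMA6A (log2 3.44, SE 0.31) and their receptor NRP1 (log2 1.87, SE 0.15) were higher in AGS with the guidance ligand NTN1 (2.54, SE 0.20). SEMA3B (log2 -1.35, SE 0.11) was higher in HGC-27. UCHL1, a neuronal deubiquitinase, had 1 and 2 counts in AGS and 236 and 218 in HGC-27, and the neurofilament NEFH 2 and 0 against 201 and 294. Of 13 imprinted genes tested (61.5% called), PEG10, derived from a retrotransposon, had 1738 and 1644 counts in AGS against 189 and 171 (log2 3.43, SE 0.13), and GRB10 differed by log2 1.59 (SE 0.11), whereas H19 (log2 -0.96, SE 0.13) and PHLDA2 (-1.07, SE 0.16) were higher in HGC-27. In total 5 were higher in AGS and 3 in HGC-27, and without AGS replicate 1 the first number was 3. Among 20 genes of mismatch repair and DNA methylation 5 were higher in each line, 50% called and so near the 44.6% of all genes. They included the alkylation repair gene MGMT (log2 -1.30, SE 0.18) and the mismatch repair gene MSH6 (-0.69, SE 0.10) in HGC-27, and the methyltransferase DNMT3A (1.11, SE 0.17) in AGS. The numbers of this list were 2 and 3, 3 and 4, and 8 and 5 (AGS, then HGC-27) without AGS replicate 1, AGS replicate 2 and HGC-27 replicate 1.

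Genes of lytic and apoptotic death, the setting in which NINJ1 acts, were called at close to the background rate, 12 of 26, with 4 higher in AGS and 8 in HGC-27. CASP1, the inflammatory caspase, lies at chr11:105025443-105035250 and stood out with 15 and 9 counts in AGS against 295 and 333 in HGC-27 (log2 -4.50, SE 0.27, edgeR adjusted p = 1.65e-13). BAK1, a pore former of mitochondria, was also higher in HGC-27 (log2 -0.81, SE 0.14). The anti-apoptotic MCL1 was higher in AGS with 14159 and 14919 counts against 8400 and 8780 (log2 0.96, SE 0.10), as was the inflammasome sensor NLRP1 (log2 1.01, SE 0.13). Of the pore-forming gasdermins, GSDMD (log2 0.34, SE 0.23) and GSDME (0.10, SE 0.13), both chosen after their values were seen, were not called. Their relative PJVK had 35 and 23 counts in AGS and 15 and 11 in HGC-27 (log2 1.35, SE 0.47, edgeR adjusted p = 0.0207), a call that was lost by DESeq2 (adjusted p = 0.109), without AGS replicate 1 (0.313) and without HGC-27 replicate 2 (0.13). Without AGS replicate 2, 5 genes were higher in HGC-27 and 3 in AGS.

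Among surface antigens of solid tumours 8 of 24 were higher in HGC-27 and 7 in AGS (62.5% called, against 44.6% of all genes). Mesothelin, MSLN, had 800 and 725 counts in AGS and 3199 and 3739 in HGC-27 (log2 -1.99, SE 0.11), and CD274, the checkpoint ligand PD-L1, had 6 and 12 against 75 and 94 (log2 -3.02, SE 0.40). CD44 (log2 1.09, SE 0.10), MET (0.82, SE 0.10) and ROR1 (1.38, SE 0.21) were higher in AGS. Without AGS replicate 1 or 2 these numbers were 7 and 3. Other abundant surface genes were at the same level in both lines, chosen after their values were seen. FOLR1, the folate receptor, had 11296 and 12725 counts in AGS and 10629 and 13627 in HGC-27, which is 931 and 820 CPM (log2 0.18, 95% interval -0.04 to 0.41). L1CAM, a neural adhesion molecule, stood at 306 CPM in both lines (log2 interval -0.21 to 0.21), and the kinase AXL at 111 and 118 CPM (interval -0.31 to 0.13).

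Differences were not spread evenly along the genome. By nuclear chromosome, the median log2 difference ran from -0.24 on chromosome 19, where 109 genes were higher in AGS and 379 in HGC-27 of 1083 tested, to 0.43 on chromosome 21, with 81 and 15 of 172. In windows of 10 Mb with at least 15 tested protein coding genes (268 windows, GRCh38 coordinates from GENCODE 29) the median over windows was 0.03. The highest median was that of chr13:110000001-120000000 at 0.97, where 25 of 28 genes were higher in AGS and 0 in HGC-27, TMEM255B, F10 and MCF2L by the most. The end of the long arm of chromosome 2 held 3 such windows in a row, from chr2:220000001-230000000 (0.95) through chr2:230000001-240000000 (0.86, with 39 of 49 genes higher in AGS) to chr2:240000001-250000000 (0.89). The first 4 windows of the same chromosome lay at 0.65, 0.59, 0.58 and 0.47, and the next, chr2:40000001-50000000, at -0.31.

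In the other direction, the lowest windows were chr9:1-10000000 at -0.98, where 25 of 30 genes were higher in HGC-27 and 1 in AGS, led by DMRT1, SPATA6L and CD274, and chr9:10000001-20000000 at -0.94, which holds MPDZ. At chr18:70000001-80000000 the median was -0.88 with 15 of 17 genes higher in HGC-27 and 0 in AGS, and at chr4:180000001-190000000 it was -0.88, in a window that holds TLR3. The stretch chr19:50000001-60000000 had 101 of 148 genes higher in HGC-27 and 3 in AGS, with a median of -0.71. Zinc finger genes fill much of it, but the difference was not theirs alone: of 75 genes named ZNF there 52 were higher in HGC-27 and 0 in AGS, and of the 73 others 49 and 3. Zinc finger genes elsewhere on chromosome 19 were called in 9 and 11 of 107, and on other chromosomes 42 of 225 were higher in AGS and 46 in HGC-27. The difference also moved with GC content, from a median of log2 0.21 for genes with up to 35% GC to -0.25 for those above 65%. By library, genes above 65% GC lay at 0.25 in HGC-27 replicate 2 and -0.18 in AGS replicate 2 from the mean of the 4, and at -0.015 and -0.033 in the other HGC-27 and AGS libraries. With counts corrected for GC content, the largest shift of a window median was 0.206. The 44 windows whose median lay beyond 0.5 in size therefore could not change sign, and of all 268 windows 40 did. After the correction chr9:1-10000000 stood at -1.02 and chr13:110000001-120000000 at 0.99. The highest median was then that of chr2:240000001-250000000 at 1.06, and chr19:50000001-60000000 stood at -0.67. DNA copy number was not measured here. The split by zinc finger genes and the windows after GC correction were chosen once the window values had been seen.

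**Figure D5:**
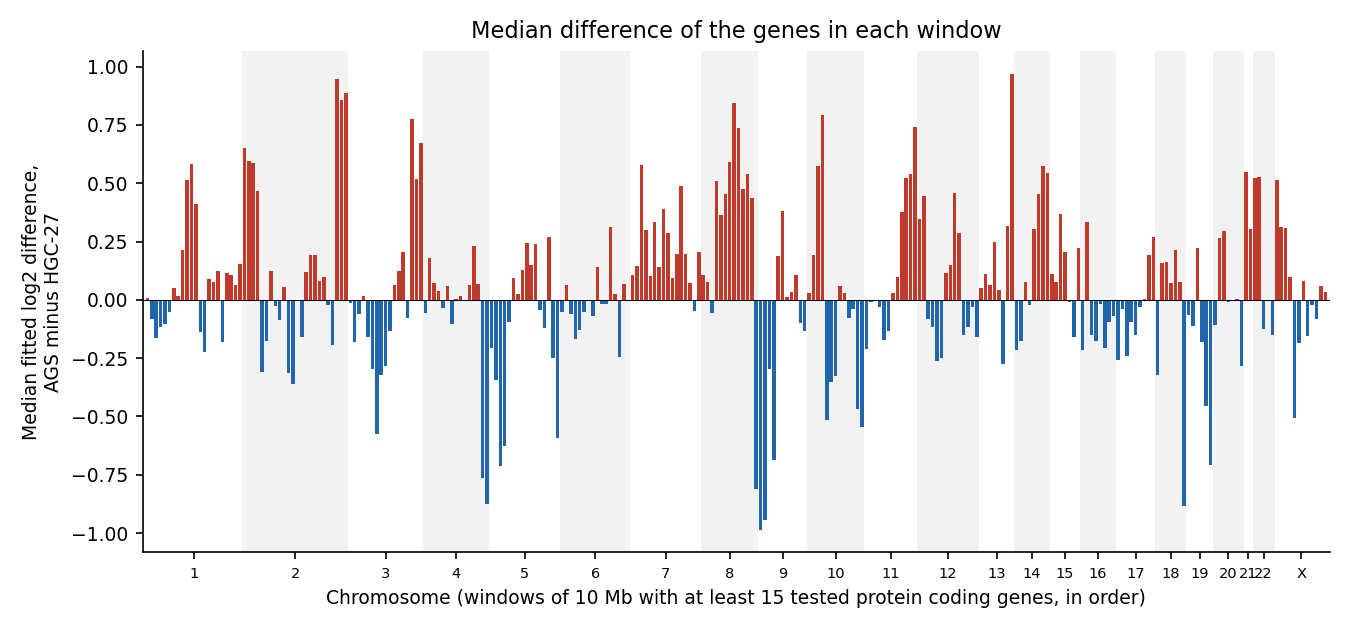
Median fitted log2 difference, AGS minus HGC-27, of the tested protein coding genes in each of the 10 Mb windows with at least 15 of them, in order along the chromosomes; red bars lie above 0 and blue bars below. Runs of adjacent windows on 1 side are seen at both ends of chromosome 2 for AGS and at the start of chromosome 9 for HGC-27.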

How the data were processed

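Messenger RNA libraries of the lines AGS and HGC-27, all with NINJ1 overexpression, were compared, 2 against 2. Per the file headers, each deposited table holds the count of reads (not normalized) and the FPKM of 51103 Ensembl genes. The submitters' processing notes name HISAT2, HTSeq 0.13.5 and GRCh38; the annotation release and strand setting are not given in the sources used here. The authors' FPKM, used for levels between genes and in alternatives, equals the count divided by a fixed gene length and the library total to within 5.72e-09. The GENCODE 29 annotation held all 51103 identifiers.

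Counts were tested with edgeR 4.0.16 (R 4.3.3): filterByExpr with a minimum count of 10 (15562 genes), TMM, quasi-likelihood F tests, two-sided, adjusted p under 0.05. SE is the log2 difference divided by the square root of F. CPM is the count divided by the library's total over tested genes times its TMM factor, and scaled as FPKM is, without the gene length. Alternatives used DESeq2 1.42.0, limma 3.58.1 on log2(FPKM + 1) and log2(FPKM + 0.1), other filters, a GC correction, a replicate block, each library left out, and the lines of the attached records.

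Members and gene lists (42, and 5 of cell type markers) were chosen with earlier results of these data known. Eligible to be named were NINJ1, per direction the 12 largest differences with at least 200 counts and the 6 most abundant genes past 2-fold. So were the 6 highest on-off genes per direction, up to 4 called genes per list and direction by p, and 3 per window. Not all eligible genes are named. Any gene outside this rule is marked in the text, apart from genes given as markers, DSP among them, and genes below the filter. Clone-type names and gene types other than protein coding, lincRNA and antisense were counted and not named. A shared replicate number does not pair libraries: the replicate 1 minus 2 deviations of the lines correlated at 0.025. The 2 control libraries were not used. Some genes are not reported here.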

Additional observations from a re-analysis of the deposited data

How the results depend on the processing

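None of the named genes that were called changed direction under the alternatives listed here, the lines of the attached records aside; of all 2508 genes past 2-fold, 2446 kept their sign with each library left out. When only the 7673 genes with a mean FPKM of at least 5 were tested, 1876 were higher and 1848 lower in AGS. Past 2-fold, 273 were higher and 282 lower, against 1306 and 1202 of 15562, a larger drop than in genes tested. Of 368 genes eligible to be named 212 were then called, against 365. On log2(FPKM + 1), 461 and 550 genes passed 2-fold with limma, and 838 were higher with a pseudocount of 0.1, which shrinks low genes less. Leaving out 1 library gave 2355 to 3854 higher and 2270 to 3890 lower genes, 1072 to 1317 and 1042 to 1286 past 2-fold and 341 to 362 named genes; the lone library of a line is then assumed to vary like the other pair. With DESeq2, 2842 genes were higher and 2759 lower, 5598 of them called by edgeR with the same sign. A replicate block gave 3659 higher and 3529 lower genes; the numbers do not pair the libraries and the block changed no named call. With each table given to the line of its attached record, 0 genes passed in either direction by edgeR, 0 past 2-fold and 0 of the named genes, with 8 genes at unadjusted p under 0.05 and log2 differences of named genes from -0.949 to 1.05; values per gene under that reading are not listed. On-off genes in AGS numbered 20, 5 and 22 with at least 50 counts, at least 200 counts, or up to 2 counts as off, and in HGC-27 41, 12 and 36. The difference in NINJ1 ranged from -0.183 to 0.112. Over all single-gene alternatives other than the attached records, 4093 kept their status as called or not called and 77 lost the call. A gene called in neither fit, such as NINJ1, counts as kept whatever its sign. List medians, here with the attached records included, moved by less than the spread between replicates in 447 cases and by more in 159. The number of libraries, 2 per line, limits every comparison, and counting noise limits genes below about 50 counts.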
